A study of Mus musculus with 20 samples.

Results

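The genes described here encode 9 secreted proteins of the exocrine pancreas that were chosen by their uneven signal across single mouse livers in these same arrays: Pnlip, Pnliprp1, Cel, Clps, Prss2, Ctrb1, Ctrl, Cpa1 and Cpb1. They were found by gene name among the probes that were not controls, which gave 10 probes of 41174 on the array and 9 of the 17195 rows that entered the tests. Each row is 1 gene, or 1 probe without a gene name. The 20 livers came from male C57BL/6J mice that received a high-fat diet with 60% of energy from fat from weaning on and were sampled at 6 weeks of age. Of these, 10 samples were labelled as susceptible to diet-induced obesity (responders, R1 to R10) and the other 10 as resistant to it (non-responders, NR1 to NR10). Both groups therefore shared strain, diet and age, and no chow-fed animals were among them. Since the labels name no individual animals, the p-values below speak only to the spread among the deposited samples. The study compared the liver RNA of the 2 groups on Agilent 1-colour arrays.

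The exocrine pancreas consists of acinar cells, which make digestive enzymes, mostly as inactive precursors, and release them through ducts into the gut. Lipases and their helper colipase split dietary fat, the trypsinogen and chymotrypsinogen families give endopeptidases, and carboxypeptidases trim the ends of the peptides. In acini these genes are switched on together by the PTF1 complex, in which PTF1A and an E-box partner sit beside RBPJL or RBPJ. In the pancreas their transcripts are among the most abundant of all.

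Sequences of 5 of the array's 60-base probes are printed because the values rest on them, and because enzymes of 1 family can share sequence. The printed probes lie in the coding part of lipase and endopeptidase transcripts. In the probes of Prss2 and Ctrl the capitals mark a run of bases found once in each, which falls in the stretch around the catalytic aspartate of trypsin-like proteases. The other probes have nothing marked.
Pnliprp1: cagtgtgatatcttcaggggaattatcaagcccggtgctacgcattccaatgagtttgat
Cel: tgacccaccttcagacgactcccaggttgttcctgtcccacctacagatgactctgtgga
Prss2: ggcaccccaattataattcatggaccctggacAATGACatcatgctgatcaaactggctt
Ctrb1: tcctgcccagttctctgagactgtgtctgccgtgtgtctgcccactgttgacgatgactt
Ctrl: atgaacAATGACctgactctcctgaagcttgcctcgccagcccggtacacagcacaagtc

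In the array's annotation on mm9, the Pnliprp1 probe lies at chr19:58815028-58815621, a span longer than the probe because it crosses an intron. The Cel probe lies at chr2:28411609-28411668 on the minus strand and the Prss2 probe at chr6:41473937-41473996 on the plus strand. The Ctrb1 probe at chr8:114212498-114212557 and the Ctrl probe at chr8:108456495-108456554 are both on the minus strand. Over all 45 pairs of the 10 probes, the longest run of bases that 2 probes shared was 9. The probes were compared only with one another, and binding of any probe to transcripts of other genes was not tested. Prss2 belongs to a cluster of near-identical trypsinogen genes, and whether its probe also bound transcripts of the others was not tested.

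The promoters of Cel and Prss2 are shown because they were the 2 of 8 windows that held both motifs searched for, CACCTG, an E-box, and TTTCCC, the core of RBPJ-type sites. Each window is the 250 bases before the RefSeq start of the gene on GRCm38.p6, both strands were searched, and the capitals mark the matches. The Cel window is chr2:28563404-28563653 on the minus strand and the Prss2 window is chr6:41521526-41521775 on the plus strand.
Cel: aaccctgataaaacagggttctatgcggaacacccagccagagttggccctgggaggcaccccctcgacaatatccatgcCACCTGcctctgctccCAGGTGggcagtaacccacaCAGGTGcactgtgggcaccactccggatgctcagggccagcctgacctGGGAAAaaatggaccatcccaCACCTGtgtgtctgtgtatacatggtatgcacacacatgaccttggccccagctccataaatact
Prss2: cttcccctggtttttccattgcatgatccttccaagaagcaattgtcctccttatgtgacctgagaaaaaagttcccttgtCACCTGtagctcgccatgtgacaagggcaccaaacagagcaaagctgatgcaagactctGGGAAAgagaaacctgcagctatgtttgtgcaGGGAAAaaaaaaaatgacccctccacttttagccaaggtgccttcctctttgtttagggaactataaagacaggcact

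The Cel window held CACCTG 4 times and TTTCCC once, and no match overlapped another. The Prss2 window held CACCTG once and TTTCCC at 2 places. CACCTG was in the windows of 4 of the 8 genes (Cel, Cpb1, Prss2 and Ctrl), against 17.2% of all 32851 RefSeq windows of that length. TTTCCC was in those of Cel, Cpa1, Prss2 and Ctrb1, which again makes 4 of 8, against 21.9% of all windows. Both motifs stood in 3.61% of all windows. The windows of Pnlip and Pnliprp1 held neither sequence of letters, and Clps was not searched. A match of letters is a description of the window and no evidence of binding.

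On each array between 55.8% and 71.2% of spots exceeded the background clearly, with 0 saturated spots on every array. They fell into 2 slide series that differ in the scanner's slide numbers, with 4 responders and 6 non-responders in the first and 6 responders and 4 non-responders in the second. The 75th percentile of the signal was 280.1 to 417 on first-series arrays and 413 to 657 on second-series ones. Every level below is the log2 of a probe's signal over that percentile of its own array, so that 0 is the percentile itself and 1 unit is a doubling. The samples carried the defining transcripts of liver at high level: the mean of the 10 hepatocyte genes with a kept row, of 12 listed, was 7.35 to 7.76 in responders and 7.41 to 7.99 in non-responders. Albumin (Alb) lay between 9.57 and 10.34 in responders and between 9.17 and 10.56 in non-responders. One limit of bulk tissue applies throughout: fewer cells of a type and less RNA per cell cannot be told apart.

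The 9 enzyme genes ranged from background to among the brighter signals of the array, liver by liver. Their mean level was lowest in R5 at -6.13 and highest in R3 at 5.13. Among responders the mean had a median of -1.13, with a lowest value of -6.13 and a highest of 5.13. Among non-responders the median was 0.28, the lowest -5.40 and the highest 5.08. All 9 genes were well above background in 14 livers, which were 6 responders and 8 non-responders. In the other livers, R4, R5, R6, R8, NR2 and NR10, between 3 and 6 of the 9 were. The livers did not fill the range evenly. R4, R5, R6, R8, NR2 and NR10 had means of -6.13 to -4.85, and R10 followed at -2.83 and NR9 at -1.0. The gaps below R10 and NR9, 2.02 and 1.84, were the widest. Further up, R2 stood at 0.57, NR1 at 3.15 and R7 at 4.46.

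**Figure D1:**
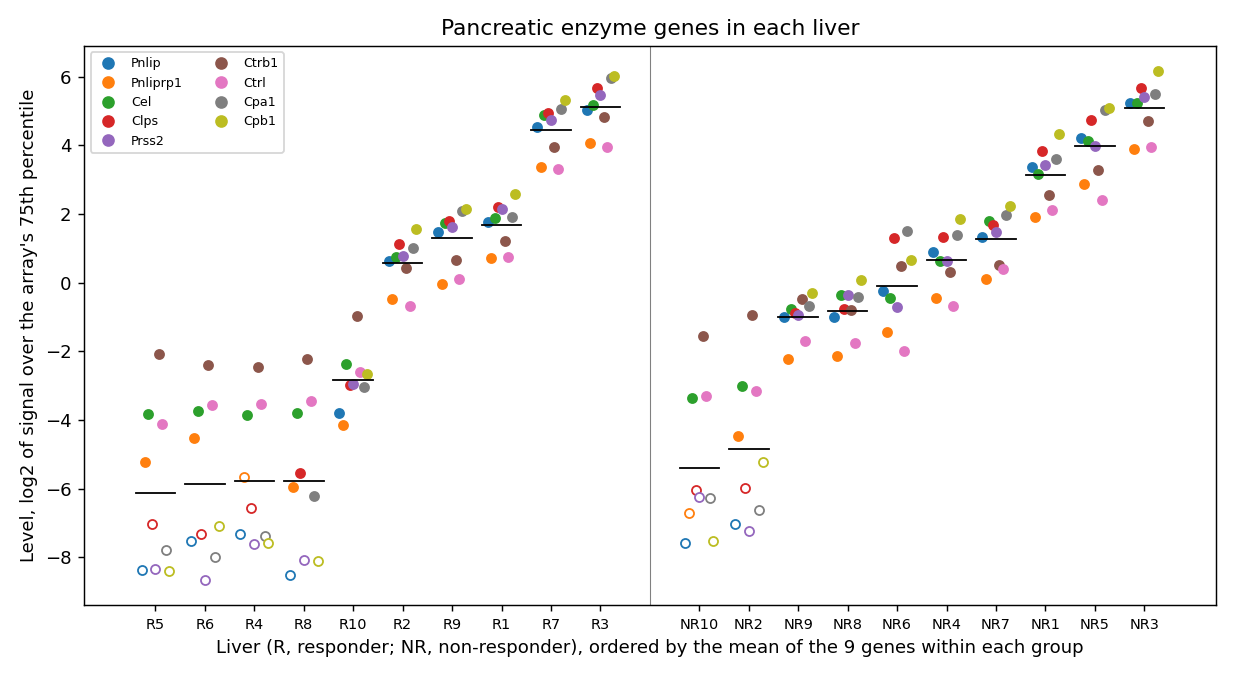
The level of each of the 9 genes (vertical axis, log2 of signal over the 75th percentile of the array) in each liver, with responders (R) on the left and non-responders (NR) on the right, each ordered by the mean of the 9 genes, which is the black line. Filled points were well above background and open points were not; each group spans the range from open points near -8 to filled points above 5.

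The lipases and their cofactor had the following levels. Pnlip encodes pancreatic triglyceride lipase, which splits dietary triglycerides in the gut lumen. In responders it showed a lowest level of -8.52, a median of -1.58 and a highest of 5.02, and in non-responders a lowest of -7.60, a median of 0.33 and a highest of 5.24. It was well above background in 6 responders and 8 non-responders, and its values in R3 and NR3, 5.02 and 5.24, were next to each other. The level in NR3 was at least 3952-fold that in R8, where the probe was not well above background and the dimmest signal counted as above background on that array was used. The ranges of the 2 groups overlapped over nearly all of their length. A second Pnlip probe, designed on a cDNA clone of the gene, tracked the first with Pearson's r of 0.98 over 20 livers, and its level was 3.03 lower on average (SD 0.34) in the 14 livers where all 9 genes were above background.

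Clps encodes colipase, which anchors pancreatic lipase to fat droplets in the presence of bile salts. Its lowest level was -7.33, its median -0.92 and its highest 5.68 in responders, against -6.03, 1.31 and 5.67 in non-responders. Its highest and lowest livers, R3 and R6, were both responders and differed at least 4748-fold. Pnliprp1 encodes a relative of pancreatic lipase with little lipase activity of its own. It had a lowest level of -5.95, a median of -2.30 and a highest of 4.07 in responders, and a lowest of -6.72, a median of -0.95 and a highest of 3.88 in non-responders. It was well above background in 9 responders and 9 non-responders, the exceptions being R4 and NR10. Cel encodes the bile salt-stimulated carboxyl ester lipase, which acts on cholesteryl esters and other lipids. Cel levels had a lowest value of -3.86, a median of -0.82 and a highest of 5.18 in responders, against -3.36, 0.13 and 5.24 in non-responders. Cel was well above background on all 20 arrays, and its level in NR3 was 548-fold that in R4.

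Of the endopeptidases, Prss2 encodes an anionic trypsinogen, the precursor that starts the activation of the other proteases. It had a lowest level of -8.66, a median of -1.09 and a highest of 5.46 in responders, and a lowest of -7.24, a median of 0.13 and a highest of 5.41 in non-responders. Prss2 was well above background in the same number of livers as Pnlip, and its level in R3 was at least 4612-fold that in R8. Ctrb1 encodes chymotrypsinogen B, which is cut by trypsin to a protease for aromatic residues. Levels of Ctrb1 had a lowest value of -2.45, a median of -0.28 and a highest of 4.83 in responders, against -1.56, 0.40 and 4.71 in non-responders. Ctrl encodes chymotrypsin-like protease, another enzyme of that family. Its lowest level was -4.13, its median -1.64 and its highest 3.94 in responders, against -3.31, -1.20 and 3.95 in non-responders. Ctrb1 and Ctrl were well above background on all 20 arrays and had the narrower ranges, 155-fold and 269.7-fold between the highest and the lowest liver.

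Of the carboxypeptidases, Cpb1 encodes procarboxypeptidase B, which yields an enzyme that removes basic residues from the ends of peptides. It had a lowest level of -8.39, a median of -0.55 and a highest of 6.01 in responders, and a lowest of -7.52, a median of 1.25 and a highest of 6.16 in non-responders. The level in NR3 was at least 7449.5-fold that in R8. Cpa1 encodes procarboxypeptidase A1, whose active form removes aromatic and branched residues. Responders had a lowest Cpa1 level of -8.0, a median of -1.01 and a highest of 5.95, against -6.63, 1.46 and 5.49 in non-responders. R3 exceeded R6 at least 5739.9-fold. Ranked by their standard deviation (SD) over the 20 livers among all 17195 rows, Cpb1, Prss2, Pnlip, Cpa1 and Clps took ranks 2 to 6, and the first was Cela3b, a further pancreatic gene. Pnliprp1, Cel, Ctrl and Ctrb1 took ranks 32, 45, 74 and 100. The genes at ranks 2 to 6 were well above background in 14 or 15 livers, and their levels in the remaining livers entered the SD too. The SD was 2.33 to 5.13 log2 units for the 9 genes, with a median of 4.57, against a median of 0.27 over all rows. The genes were listed because of this spread, so that these ranks are a description.

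The 9 genes moved together. Over the 20 livers the 36 pairwise Pearson correlations ran from 0.92 (Cpb1 with Ctrb1) to 1.00 (Cpa1 with Clps), with a median of 0.97. Spearman's rho ran from 0.95 to 0.99. The median r was 0.97 without R5 and R6, whose means were farthest from the median of all livers, and 0.97 within the first and within the second slide series. Spearman's rho was lower in the second series, with a median of 0.88 and a lowest value of 0.76. In the first series its median was 0.98 and its lowest value 0.93. In the 14 livers with every gene above background, r ran from 0.94 to 1.00, with a median of 0.99. These points share the array, its scaling and the RNA of 1 liver.

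Over those 14 livers, a change of 1 log2 unit in the mean of the other 8 genes went with a change of 1.08 in Pnlip, 1.07 in Cpb1, 1.06 in Clps and 1.05 in both Cpa1 and Prss2. The slope was 1.03 for Pnliprp1, 0.98 for Cel, 0.89 for Ctrl and 0.77 for Ctrb1. Over all 20 livers the slopes spread further, from 0.53 for Ctrb1 to 1.33 for Cpb1. In the 6 livers with genes at background, Ctrb1 lay between -2.45 and -0.96 and was well above background, whereas Cpb1 was not. The tightest pair was Pnlip and Cpb1: the difference between their levels had an SD of 0.13 over the 14 livers, against 0.99 for the loosest pair, Pnlip and Ctrb1. Feature Extraction's own error estimate for a spot had a median of 10% to 10.2% of the signal for these probes. Each median covers only the arrays where the probe was well above background.

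Single livers departed from the common order. In NR6, Cpa1 and Clps were close to their levels in NR4, at 1.52 and 1.29 in NR6 against 1.39 and 1.32 in NR4. Prss2, Pnlip and Ctrl were lower in NR6 than in NR4, at -0.72, -0.24 and -2.0 in NR6 and 0.64, 0.90 and -0.69 in NR4. In R8, Clps at -5.53 and Cpa1 at -6.21 were well above background while Pnlip, Cpb1 and Prss2 were not. In R10, Pnliprp1 was -4.14 and Ctrb1 -0.98, all 9 genes being above background there.

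Genes outside the list followed the mean of the 9. At Pearson's r of at least 0.8 there were 26 of 17186 other rows, which is 0.151% of them, and no row reached -0.8. Among the 26, 19 were in a list of 40 other exocrine pancreas genes, of which 24 had a kept row, and 1 was in a list of acinar regulators. By the rule for named genes, those with the highest r included Prss3 and Try5 (trypsinogens), Rnase1 (pancreatic ribonuclease), Cela1, Cela2a and Cela3b (elastases), Sycn (syncollin, a zymogen granule protein), Pdia2 (a pancreatic protein disulphide isomerase), Ctrc (chymotrypsin C), Pnliprp2 (a lipase), Pla2g1b (a phospholipase), Serpini2 (a pancreatic serpin), Reg1 (a regenerating islet-derived protein) and Gp2 (a granule membrane glycoprotein). Their r ran from 0.94 for Gp2 to 1.00 for Prss3. The median r with the mean of the 9 over all other rows was -0.03. These correlations chose the genes that are named, so that they are given with no test.

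Prss3 had a lowest level of -5.43, a median of -0.21 and a highest of 6.44 in responders, and -4.72, 1.58 and 6.4 in non-responders. Cela3b had -8.54, 0.15 and 6.93 in responders, against -5.32, 2.42 and 6.78 in non-responders, and its level in R3 was at least 11279.7-fold that in R6. Rnase1 had -5.85, -1.93 and 4.37 in responders, and -5.03, -0.34 and 4.43 in non-responders. In all 3 genes R3 and NR3 were the 2 highest livers. Ctrc, which regulates trypsinogen activation, was above background on all 20 arrays, with a lowest level of -1.26, a median of 0.76 and a highest of 6.43 in responders, against -0.94, 1.69 and 6.4 in non-responders.

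Of the other exocrine genes with a kept row, the 5 below the threshold were Amy1 (0.80 after rounding), Spink1 (0.75), Erp27 (0.37), Gatm (-0.05) and Dnase1 (-0.17), which are named after their values were seen. Amy1 encodes an amylase that liver and salivary gland also make. It was at 6.51 to 9.07 over the 20 livers and changed by 0.16 per log2 unit of the mean of the 9 genes. Amy2a5, the pancreatic amylase, was at 1.47 to 5.74 and changed by 0.29 per unit. The amylase genes are close copies, so that signal on their probes may be shared. Gatm makes the precursor of creatine and Dnase1 is a secreted nuclease of several glands; their SD over livers was 0.33 and 0.58.

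**Figure D2:**
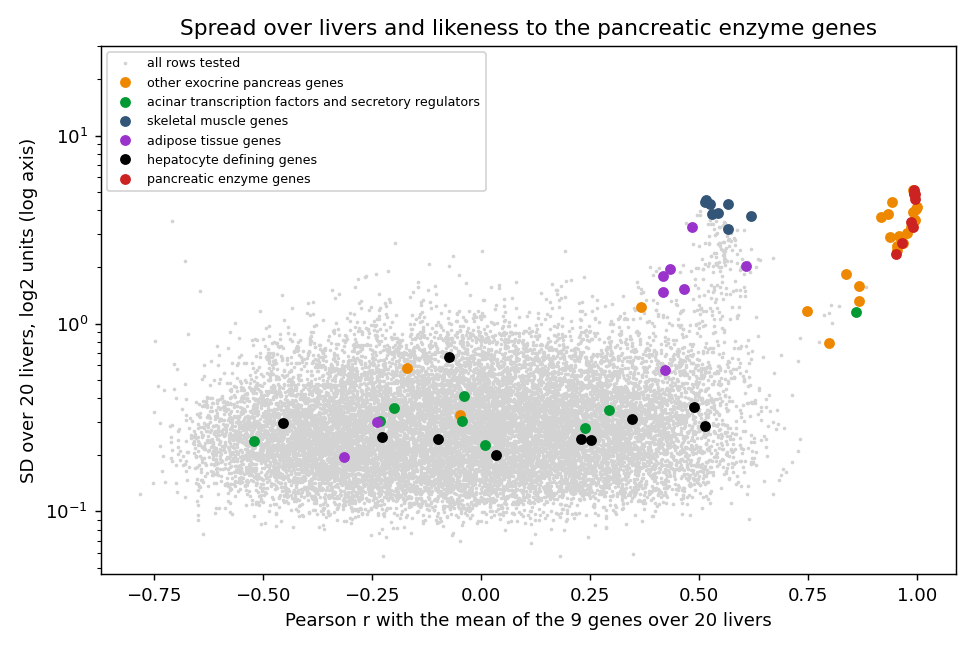
Pearson's r with the mean of the 9 pancreatic enzyme genes (horizontal axis) against the SD over 20 livers (vertical axis, log scale) for the 17195 rows. The 9 genes (red, included in the mean they are set against) and 19 of 24 other exocrine genes (orange) lie at r of 0.8 or above, skeletal muscle genes (blue) have SDs as large at r of 0.51 to 0.62, and hepatocyte genes (black) have SDs of 0.20 to 0.66.

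In R8, 3 genes of the exocrine list, Reg1, Zg16 and Gp2, were higher than in the other livers with the lowest enzyme means. Reg1 stood at -1.09 there, against -7.04, -8.67 and -8.72 in R4, R5 and R6, where it was not above background, and these 3 livers had enzyme means close to that of R8. Zg16, a lectin of zymogen granules that intestinal goblet cells also make, was -0.02 in R8, against -7.36, -6.22 and -5.85 in R4, R5 and R6. Gp2 was -4.64 and well above background in R8, against -7.62, -8.55 and -8.55, not above background, in R4, R5 and R6. The intestine and stomach list, of which 7 of 18 genes had a kept row, had its highest mean in R8, at 1.41, against 0.60 to 1.18 in the other responders and 0.76 to 1.26 in non-responders. Its member with the widest range, Vil1 (villin, a brush border protein), was -2.14 in R8 and -3.22 or lower in all other livers. Every other kept gene of the list had its highest level in a liver other than R8. Cdx1, Cdx2, Gkn1, Gkn2 and Gif of that list were well above background on 0 arrays. The part of gut tissue in these values was not tested.

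The transcription factors of acinar cells were less visible than the enzymes. Ptf1a and Pdx1 were well above background on 0 of 20 arrays and Cckar, the cholecystokinin receptor, on 3. Rbpjl, the acinar subunit of the PTF1 complex, followed the enzymes with r of 0.86 and was highest in the same livers, at -2.01 in R3, -2.86 in R7, -2.48 in NR3 and -3.07 in NR5. Its lowest, median and highest levels were -6.16, -5.15 and -2.01 in responders and -5.55, -4.74 and -2.48 in non-responders. Of the other factors described here, r lay between -0.23 (Xbp1) and 0.29 (Gata4). Nr5a2, Foxa2, Foxa3 and Xbp1, which hepatocytes also use, were above background on all 20 arrays and had SDs of 0.23 to 0.41. Bhlha15, the acinar factor also known as MIST1, lay between -5.29 and -4.21 in responders and between -5.09 and -3.83 in non-responders, with r of -0.20.

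Islet genes were read as markers of the other part of the pancreas, but not all of them mark islets alone. Ttr, at 3.91 to 5.03 over the livers, was also in the hepatocyte list. Slc2a2 was about as bright, at 3.86 to 5.22, and both count in the list mean below. Of 19 listed genes, 8 had a kept row, and their mean was -2.58 to -1.47 in responders and -2.89 to -1.58 in non-responders. Its r with the enzyme mean was 0.49 over all livers, but -0.02 in the first and 0.59 in the second slide series. Ins2 (insulin) was well above background in 10 livers and had its highest levels, -0.69, -1.03 and -1.56, in R7, R3 and R2, while in R9 and R1 it was not above background. In non-responders it was highest in NR4 at -2.88 and was -4.36 in NR3, the non-responder with the highest enzyme mean. Ins1 was above background in 4 responders and 0 non-responders. Gcg (glucagon) was above background in 12 livers, with levels of -6.03 to -3.79 in responders and -6.47 to -3.60 in non-responders. Mafa, Neurod1, Ucn3, Scg2 and Scg5 were well above background on 0 arrays.

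Other tissues near the liver were checked in the same way. Skeletal muscle was the list with the largest spread: all 8 genes had a kept row, all 8 were among the 50 rows with the largest SD, beside 7 of the enzyme genes, and the 8 had pairwise r of 0.96 or more among themselves. Their mean was -7.50 to 4.68 in responders and -6.26 to 4.63 in non-responders. Its r with the enzyme mean was 0.55, or 0.50 without R5 and R6, and 0.26 in the first and 0.49 in the second slide series. The livers were ordered differently: R9 had a muscle mean of -3.83 and an enzyme mean of 1.29, and NR2 had a muscle mean of 4.01 and an enzyme mean of -4.85. Myh1 (a fast myosin) was -3.74 in R9 and 4.44 in NR2.

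Adipose genes had 9 of 10 with a kept row, and their mean was -3.71 to -1.19 in responders and -2.98 to 0.54 in non-responders. Its r with the enzyme mean was 0.50, or 0.41 without R5 and R6, and 0.30 in the first and 0.39 in the second slide series. Ucp1, the uncoupling protein of brown fat, was at 1.85 in NR3, 0.72 in NR2 and -0.60 in NR7. It was not above background in 9 of the 10 responders and in the non-responders NR6, NR9 and NR10. Mesothelium genes (5 of 7 kept) had a mean of -5.16 to -3.28 in responders and -4.72 to -3.12 in non-responders and r of 0.46. The 2 kept genes of kidney and adrenal had r of 0.42, and Star, a protein of steroid-making cells, stood at 1.03 in NR7 and 0.26 in NR3 and at -2.53 or lower in the rest. Cyp21a1, the other kept gene, did not share this course: it was -3.89 in NR7 and -3.07 in NR3, and highest in NR6 at -2.80. Duct genes (9 of 11), lymphoid genes (10 of 12), red blood cell genes (3 of 6) and hepatocyte genes (10 of 12) had r of 0.21, -0.03, -0.14 and 0.17 with the enzyme mean. In the same order, r was 0.26, -0.30, 0.19 and 0.05 in the first slide series. In the second it was 0.30, 0.03, -0.41 and -0.44. The part of any of these tissues in the enzyme values was not tested.

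**Figure D3:**
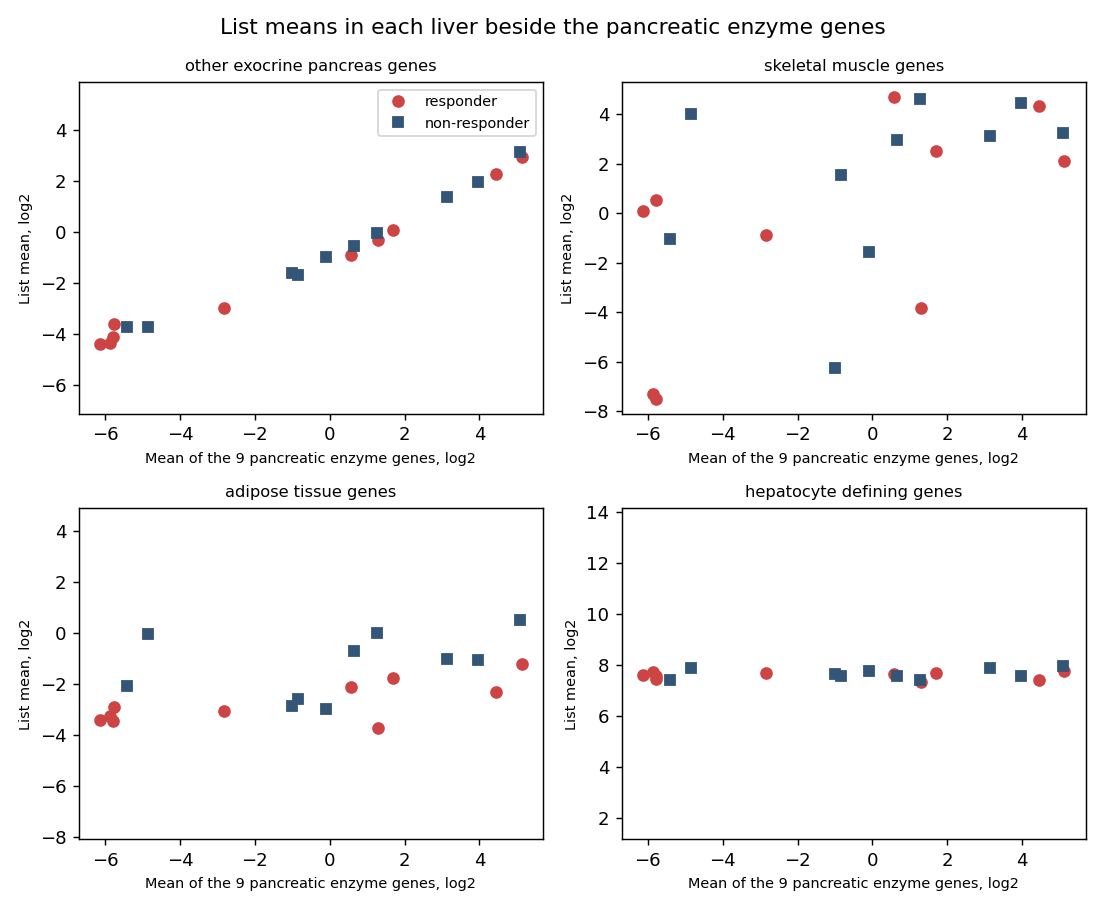
The mean level (log2) of 4 gene lists in each liver against the mean of the 9 pancreatic enzyme genes, with responders as red circles and non-responders as blue squares; all vertical axes span about the same number of units. The other exocrine genes form a line (r of 0.99), muscle and adipose genes scatter widely, and hepatocyte genes stay between 7.35 and 7.99.

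The group comparison asked whether these genes differed between mice susceptible to diet-induced obesity and mice resistant to it. No difference was detected. All 9 genes had a lower fitted level in responders, and 0 of 9 passed the test, as did 0 of all 17195 rows (0% called), in limma with a term for the slide series and Benjamini-Hochberg adjustment. At an unadjusted p under 0.05 there were 1373 rows (7.98%) and 0 of the 9. The median difference of the 9 genes, responders minus non-responders, was -1.04, and that of all rows was 0.00, with 51.1% of all rows lower in responders. The 9 genes moved together, so that their signs are not independent of one another.

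The largest fitted difference was that of Cpb1, at -1.42 (SE 2.0, adjusted p 0.86 in limma), with a 95% interval from -5.59 to 2.75. Cpb1 averaged -1.62 ± 5.80 (SD) in the 10 responders and 0.73 ± 4.35 in the 10 non-responders. The smallest was that of Ctrl, at -0.18 (SE 1.1, adjusted p 0.97 in limma). Ctrl averaged -0.99 ± 2.96 in responders and -0.38 ± 2.50 in non-responders. Levels that were not well above background entered these means, SDs and fits without the bound used for the folds. Cpb1 was well above background in 14 livers. The genes above background on all 20 arrays, Cel, Ctrb1 and Ctrl, differed by -0.51, -0.27 and -0.18. Pnlip differed by -1.19 with an interval from -5.29 to 2.90, and Prss2 by -1.22 with an interval from -5.37 to 2.94. Across the 9 genes the adjusted p in limma was 0.86 to 0.97, and the exact two-sided permutation test over the 44100 arrangements of the labels within slide series gave p of 0.51 for Cpb1, the lowest, and 0.88 for Ctrl, the highest. These intervals span several doublings in both directions, so that a moderate difference was not detectable with 10 livers in each group.

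The mean of the 9 genes was -1.33 ± 4.47 in responders and 0.19 ± 3.46 in non-responders. In the first slide series it was 1.14 ± 3.28 in 4 responders and 1.32 ± 3.61 in 6 non-responders. In the second it was -2.97 ± 4.63 in 6 responders and -1.49 ± 2.81 in 4 non-responders. The slide series and the group were partly confounded, and the fitted difference of the mean was -0.83 with the series as a term, -1.52 without it, -0.18 within the first and -1.48 within the second. A test of whether the group difference itself differed between the 2 series gave adjusted p of 0.81 to 0.996 in limma over the 9 genes. The difference in level between the series was not tested. Prss2 had the opposite sign in the first series, at 0.44 (SE 2.41). Of 9 adipose genes, 7 had a lower fitted level in responders and none passed the test, with a median difference of -1.36. All 8 muscle genes had a lower fitted level in responders and none passed the test, with a median difference of -1.31.

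**Figure D4:**
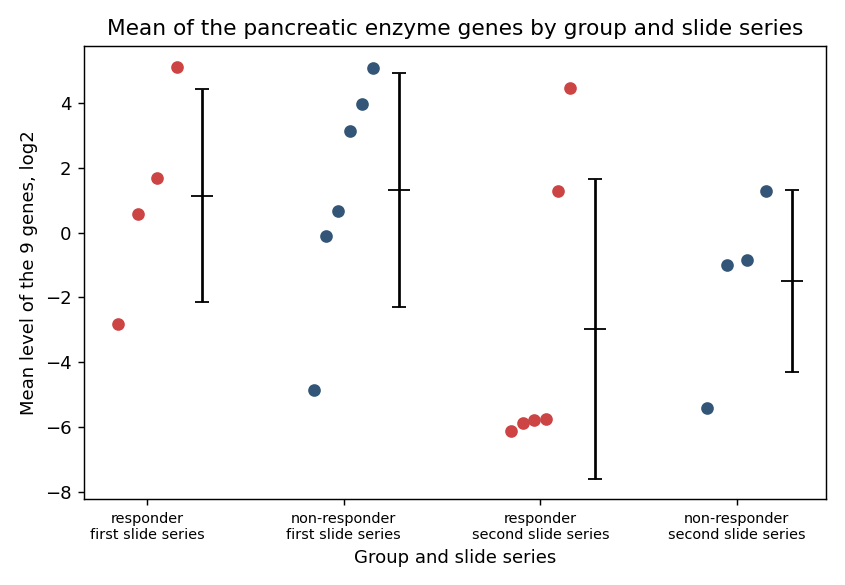
The mean level of the 9 pancreatic enzyme genes (log2) in each liver by group and slide series, with the mean and SD beside the points. The 4 sets of points overlap, and 4 of the 6 responders of the second series lie between -6.13 and -5.77.

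Livers on the same slide could differ widely in these genes. There were 7 slides that carried 2 of the livers, and the enzyme means of the 2 differed by 0.10 (R8 and R6) to 6.69 (R9 at 1.29 and NR10 at -5.40), with a median of 2.11. The enzyme mean was also set beside array quality. Over 20 livers, r was -0.57 with the 75th percentile of the signal, -0.67 with the percentage of spots above background and 0.61 with the number of flagged spots. Within the first and the second series, r with the percentile was -0.58 and -0.27, and with the percentage of spots above background it was -0.38 and -0.65. The part of signal strength in the enzyme levels was not tested.

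Rows with the opposite course changed little in size. The 5 with the lowest r, Cript (-0.78), Sh3gl1 (-0.75), Clcc1 (-0.75), Atic (-0.74) and Slc10a3 (-0.74), had SDs of 0.12 to 0.34 over the livers, and their slopes were -0.02 to -0.06 per log2 unit of the enzyme mean. Atic, an enzyme of purine synthesis, was 0.32 to 1.19 in responders and 0.29 to 1.01 in non-responders. Slc10a3 belongs to the bile acid transporter family.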

How the data were processed

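RNA from 20 mouse livers was labelled with Cy3 and hybridised to Agilent 1-colour arrays. Per the file headers, the deposited spot intensity values are processed signals of Feature Extraction 10.5.1.1, while the submitters' processing notes name version 9.1. The authors' deposited table of processed intensities was used as an alternative only, and the sources used here do not give its normalization. Its values were put on a log2 scale here and scaled by the 75th percentile. Control and outlier-flagged spots were left out, signals were raised to at least 1, divided by the array's 75th percentile and put on a log2 scale. A probe was kept if at least 5 arrays of either group had it well above background (26162 probes) and the brightest probe represented a gene (17195 rows, 14510 with a symbol); 134 missing values, none in the 9 genes, were filled with the row mean. limma 3.58.1 in R 4.3.3 fitted group and slide series to all rows; the fit was tested on simulated data, and exact permutations were run in Python with numpy. The number of arrays limits the precision.

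Genes of a list count as kept under the listed symbol. The members and gene lists were chosen with earlier results of these data known. The rule for named genes took the 9 members, of other genes the 15 with the highest and the 5 with the lowest r with the mean of the 9 (clone names, accessions and predicted genes left out), up to 12 of the exocrine and acinar lists with the widest range, and at most 2 of every other list; a few items that this rule takes are not reported here. Groups share replicate numbers 1 to 10, but same-numbered livers did not all deviate together (correlation from -0.29 to 0.61), so that numbers were taken as names. Alternatives were the background correction, the normalization, the deposited values, the filter, the series term, the replicate number or slide as block, each series alone, the probe rule, the rank correlation, values centred within series and group, and leaving out each liver. A further term for the enzyme mean was chosen after seeing the data.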

Additional observations from a re-analysis of the deposited data

Results flagged for a closer look

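Among 84 groups of 10 livers checked for 1 sample far from the rest, 2 held such a sample. That share is below the about 1 in 20 that chance alone gives. Slc10a3, one of the genes with the lowest r with the enzyme mean, was at 0.732 in NR10, against 0.40 in the next non-responder. The mean of the islet genes, Ttr and Slc2a2 included, was -2.89 in NR8, against -2.21 in the next lowest non-responder. None of the 9 enzyme genes had such a liver in either group.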

How the results depend on the processing

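With 10 livers a group and signals at background in up to 6 livers, only large differences could be found. Under every alternative run, 0 rows and 0 of the 9 genes passed the test, including the added term for the enzyme mean; the unadjusted count of 1373 rows became 337 under the normexp background correction. The median pairwise r of the 9 genes stayed between 0.97 and 0.99. The 26 genes that followed at r of at least 0.8 became 42 in the first and 89 in the second slide series alone, and 18 to 32 under the other filters; a series holds 10 livers. Without 1 liver the count was 23 to 30, the median r 0.97 to 0.98 and the difference of the mean -1.52 to -0.29, the extremes being those without R7 and R10. The mean differed by -0.35 under normexp, -0.69 in the deposited values and under quantile normalization, and -0.32 over the 3 genes above background on all arrays. With the replicate number as a block it differed by -0.31, and Pnliprp1 turned to 0.030. Of 10 responders, 1 was closest to the non-responder of its own number, while 8 of the same-number correlations were over 0.1. Whether the numbers mark pairs is therefore not settled. Ctrl turned to 0.035 under normexp and Prss2 to 0.44 in the first series. Leaving out single livers turned Ctrl (-0.74 to 0.26; without R5, R10, NR3, NR5 or NR7), Pnliprp1 (-0.92 to 0.34; without R10, NR3 or NR7), Ctrb1 (-0.78 to 0.10; without R10 or NR3) and Cel (-1.11 to 0.031; without R10). The cause of these turns was not tested.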
